A study of Homo sapiens with 48 samples.

Results

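The genes ID1, ID2, ID3, HES1, SMAD6, SMAD7 and EDN1 were followed in H1975, a line from a human non-small cell lung cancer with a mutated EGFR gene. They were taken by symbol from a table of raw counts, where all 7 were found among 27978 symbols. All 7 also passed the filter on low counts, which left 15789 genes for testing. Total RNA was sequenced from untreated cells at 0 h and 24 h and from cells treated for 24 h. The treatments were gefitinib, an inhibitor of the EGFR kinase, at 50 or 75 µM, the herbal preparation CKI (compound kushen injection) at 1 or 2 mg/mL, and a preparation labelled only YFSJ at 2.5 or 5 mg/mL. Each gefitinib dose was also given with each dose of CKI or of YFSJ. This gave 16 groups of 3 libraries, described by the submitters as biological replicates of 1 cell line. The study asked whether CKI and YFSJ alter the resistance of such cells to gefitinib.

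Bone morphogenetic proteins (BMPs) and TGF-beta bind serine/threonine kinase receptors that phosphorylate SMAD proteins, which enter the nucleus and act on transcription. ID1, ID2 and ID3 are immediate BMP targets in many cell types: they encode helix-loop-helix proteins without a DNA-binding region, which hold E proteins and other basic helix-loop-helix (bHLH) factors away from DNA. SMAD6 and SMAD7 encode inhibitory SMADs that are themselves induced by the pathway and dampen it, SMAD6 mainly on the BMP arm and SMAD7 on both arms. HES1 encodes a bHLH repressor and is the classic target of Notch signalling, and EDN1 encodes the precursor of the secreted peptide endothelin-1.

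Totals ran from 16428398 to 26264162 counts per library, with a median of 20125382.5, so that 3 counts corresponded to 0.107 to 0.193 CPM (counts divided by the scaled library total). The members were well above this floor: the lowest count of any member in any library was 58, for EDN1. The growth label gives a catalogue number that belongs to another line, so lineage markers were read. The lung factor NKX2-1 had a median of 44.7 CPM and EGFR one of 96.5 CPM, whereas the breast markers ESR1 (0.125 CPM), PGR (0 CPM) and GATA3 (0.681 CPM) were at or near 0. The surfactant gene SFTPB, a marker of alveolar type II cells, was also near 0 (0.0431 CPM). The liver transcript ALB was high in 10 libraries, with 2581 to 3557 counts each, against at most 8 in the other 38. These 10 were all 3 libraries of YFSJ 2.5 mg/mL alone and of CKI 2 mg/mL with 75 µM gefitinib, libraries 1 and 3 of CKI 2 mg/mL with 50 µM gefitinib, and libraries 2 and 3 of CKI 1 mg/mL with 75 µM gefitinib. The mitochondrial ribosomal RNA symbol RNR2 took 1.22% and 1.69% of counts in libraries 1 and 2 at 0 h against 0.457% in library 3, and 2.18% in library 2 of YFSJ 2.5 mg/mL with 75 µM gefitinib. For the main member results that rest on the ALB libraries, values from a fit with a batch term marking them are given as well. None are given for single genes outside the members.

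The 250 bases upstream of the RefSeq transcription start of each gene (GRCh38.p14; the submitters' processing notes name hg19, so no position from the counts is involved) were searched on both strands. The 4 motifs were TGGGAA, the core of sites for the Notch effector RBPJ; CACNAG, the N box that HES proteins bind; GTCTAGAC, the SMAD palindrome; and GGCGCC, a GC-rich element of BMP SMAD sites. Each gene had at least 1 such window, SMAD7 and EDN1 having 3 each. HES1 (chr3:194135898-194136147, plus strand) is shown because its window held paired TGGGAA words 84 and 70 bases before the start and 3 N boxes. SMAD6 (chr15:66701986-66702235, plus strand) is shown because GTCTAGAC lay 12 bases before its start. ID2 (chr2:8681806-8682055, plus strand) and ID3 (chr1:23559502-23559751, minus strand) are shown as the pair whose levels moved most alike, and held none of the 4 motifs. Each sequence runs 5′ to 3′ on the gene's strand, with motif matches in capitals.
HES1: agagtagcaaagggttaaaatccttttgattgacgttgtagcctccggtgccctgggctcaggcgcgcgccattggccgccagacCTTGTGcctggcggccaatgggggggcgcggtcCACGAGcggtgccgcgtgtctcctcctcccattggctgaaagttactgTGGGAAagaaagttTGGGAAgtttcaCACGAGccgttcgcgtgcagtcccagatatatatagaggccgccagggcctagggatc
SMAD6: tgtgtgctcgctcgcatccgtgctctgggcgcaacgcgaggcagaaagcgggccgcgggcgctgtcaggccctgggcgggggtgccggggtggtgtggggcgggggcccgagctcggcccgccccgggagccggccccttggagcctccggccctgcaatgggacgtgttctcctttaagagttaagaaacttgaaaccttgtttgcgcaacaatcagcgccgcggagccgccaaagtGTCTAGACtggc
ID2: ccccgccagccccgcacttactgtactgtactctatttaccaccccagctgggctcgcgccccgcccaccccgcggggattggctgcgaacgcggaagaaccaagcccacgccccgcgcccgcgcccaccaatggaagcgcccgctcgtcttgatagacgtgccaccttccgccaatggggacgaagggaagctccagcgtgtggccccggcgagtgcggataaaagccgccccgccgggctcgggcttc
ID3: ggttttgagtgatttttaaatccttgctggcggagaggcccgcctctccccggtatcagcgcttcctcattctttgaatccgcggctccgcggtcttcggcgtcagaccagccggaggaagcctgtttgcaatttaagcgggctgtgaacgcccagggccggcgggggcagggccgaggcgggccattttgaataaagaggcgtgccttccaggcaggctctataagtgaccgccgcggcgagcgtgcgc
Over 35116 RefSeq windows of this length, TGGGAA was present in 20.8%, CACNAG in 32.0%, GTCTAGAC in 0.182% and GGCGCC in 16.4%. Among the 7 genes, 2 had TGGGAA (HES1 and 1 of the 3 SMAD7 windows), 2 had CACNAG (HES1 and ID1), 1 had GTCTAGAC and 0 had GGCGCC. A match describes letters in the window, not occupancy.

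Per kilobase of the longest coding transcript, ID1 and ID3 were the most abundant members, with medians over the 48 libraries of 85.0 and 76.2 CPM per kb. HES1 followed at 39.3 CPM per kb, ID2 at 12.5, SMAD7 at 11.4, SMAD6 at 3.78 and EDN1 at 2.17. Across the 16 groups the ratio of the highest to the lowest mean level was 5.43 for ID2, 4.67 for HES1, 4.66 for EDN1, 3.78 for ID1, 3.08 for SMAD6, 2.67 for ID3 and 2.00 for SMAD7. ID1 was highest in untreated cells at 24 h and lowest in CKI 1 mg/mL with 75 µM gefitinib, whereas ID2, HES1 and SMAD7 were all highest in CKI 2 mg/mL with 75 µM gefitinib. EDN1 was highest in untreated cells at 0 h, and ID2, ID3 and EDN1 were lowest in YFSJ 5 mg/mL. The libraries of the highest group overlapped those of the next group for all members but EDN1. Those of the lowest group overlapped the next for all members but ID1. These overlapping places in the order are therefore not clear.

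**Figure D1:**
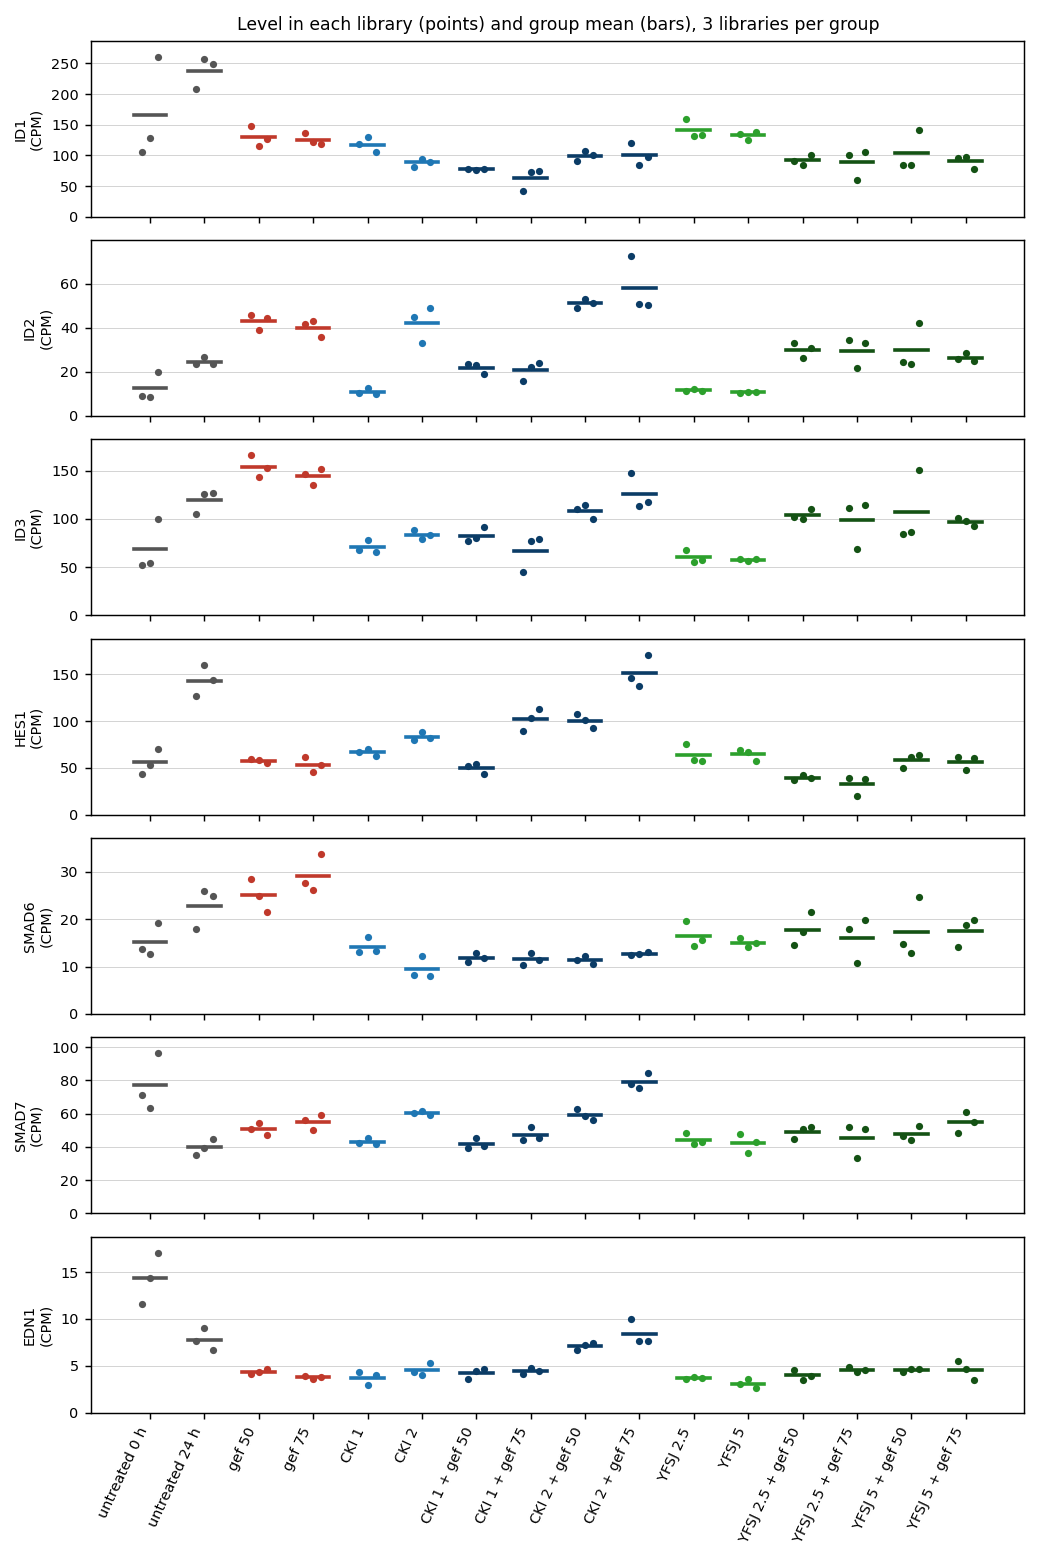
Level of each member in CPM (vertical axes, 1 panel per gene, each starting at 0) in each of the 16 groups (horizontal axis; gefitinib in µM, CKI and YFSJ in mg/mL). Points are libraries and bars are means of 3; HES1 is closest to its untreated 24 h mean of 143 CPM in CKI 2 mg/mL with 75 µM gefitinib (152 CPM), and mean ID2 lies between 10.7 and 11.7 CPM in CKI 1 mg/mL and in both YFSJ groups given alone.

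From 0 h to 24 h in culture without treatment, the Notch target HES1 rose most and the inhibitory SMAD7 and EDN1 fell. HES1 was at 44.0, 52.6 and 70.7 CPM in the 0 h libraries and at 127, 160 and 144 CPM at 24 h, a 2.57-fold rise (log2 1.36 ± 0.16 SE, edgeR quasi-likelihood test, Benjamini-Hochberg adjusted p = 2.27e-07). SMAD7 was at 70.9, 63.5 and 96.2 CPM at 0 h and at 34.8, 39.3 and 44.8 CPM at 24 h, and fell by 0.96 on the log2 scale (SE 0.13, edgeR adjusted p = 9.95e-07). EDN1 was at 11.6, 14.3 and 17.1 CPM and then at 7.65, 9.08 and 6.67 CPM (log2 -0.89 ± 0.15, edgeR adjusted p = 4.54e-05). For these 3 genes the libraries of the 2 times did not overlap. The same held for ID2 and ID3. Their highest 0 h libraries were at 19.9 and 100 CPM. Their lowest 24 h libraries were at 23.5 and 105 CPM. The libraries of ID1 and SMAD6 overlapped.

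ID2 (log2 0.94 ± 0.23, edgeR adjusted p = 0.00274), ID3 (0.79 ± 0.20, adjusted p = 0.00449) and SMAD6 (0.57 ± 0.20, adjusted p = 0.0358) were also higher at 24 h, and ID1 was not called (0.52 ± 0.23, adjusted p = 0.0910). For these 4 genes library 3 at 0 h lay above libraries 1 and 2, as it also did for HES1, SMAD7 and EDN1. ID1 was at 106 and 129 CPM in libraries 1 and 2 but at 261 CPM in library 3, which lay above all 24 h libraries, and ID2 was at 9.15, 8.77 and 19.9 CPM. Libraries 1 and 2 were those with the higher RNR2 share, and the part of that share in the result was not tested. With library 3 alone at 0 h, ID2 (log2 0.30, edgeR adjusted p = 0.814), ID3 (0.26, adjusted p = 0.854) and SMAD6 (0.24, adjusted p = 0.888) were no longer called, while HES1, SMAD7 and EDN1 stayed called. That fit has 1 library at 0 h, which is assumed to vary like the other groups. Without library 1, ID2 (adjusted p = 0.0551), ID3 (0.0783) and SMAD6 (0.187) were not called. SMAD6 was also lost without 0 h library 2 (0.157), 24 h library 2 (0.142) or 3 (0.113) and without the filter (0.0699), and in a fit of the 2 groups alone ID2 (0.149), ID3 (0.119) and SMAD6 (0.111) were not called. Without library 3, ID1 was called (log2 1.02, adjusted p = 0.000268). In all, 6 of the 7 members changed, 4 higher and 2 lower, where 25.2% of all genes tested were called (10.8% higher and 14.4% lower). That background count ranged from 1070 to 6029 genes as single libraries were left out and was 147 with library 3 alone at 0 h, so it rests on the 0 h libraries.

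Gefitinib alone lowered ID1, HES1 and EDN1 and raised ID2 and SMAD7 at both doses, each compared with untreated cells at 24 h. HES1 was at 59.6, 58.0 and 55.3 CPM at 50 µM and at 62.0, 45.1 and 53.5 CPM at 75 µM. Both groups lay below every untreated 24 h library (127 to 160 CPM). The change was 2.49-fold lower at 50 µM (log2 -1.31 ± 0.16, edgeR adjusted p = 8.02e-09) and 2.68-fold lower at 75 µM (-1.42 ± 0.16, adjusted p = 1.53e-09). EDN1 fell to 4.08, 4.31 and 4.60 CPM and to 3.93, 3.60 and 3.75 CPM, or by 0.84 (SE 0.16, adjusted p = 2.37e-05) and 1.05 (SE 0.17, adjusted p = 8.08e-07) on the log2 scale.

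The ID genes divided under gefitinib. ID1 was at 148, 116 and 127 CPM at 50 µM and at 136, 121 and 119 CPM at 75 µM, below the untreated 208, 257 and 249 CPM (log2 -0.87 ± 0.23, edgeR adjusted p = 0.00172, and -0.92 ± 0.23, adjusted p = 0.000958). ID2 was at 45.8, 39.1 and 44.4 CPM and at 41.5, 42.9 and 35.9 CPM, above the untreated 23.7, 26.6 and 23.5 CPM (0.81 ± 0.21, adjusted p = 0.00156, and 0.71 ± 0.21, adjusted p = 0.00528). For both genes no gefitinib library overlapped an untreated one, so 1 ID gene was lower while another was higher in the same libraries. ID3 was at 144 to 166 CPM at 50 µM and at 136 to 152 CPM at 75 µM against 105 to 127 CPM untreated, differences that did not pass the test (log2 0.37, adjusted p = 0.121, and 0.28, adjusted p = 0.247). In fits of only the groups compared they were called (adjusted p = 0.0112 and adjusted p = 0.0160).

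The inhibitory SMADs differed in the same comparison. SMAD7 rose to 50.9, 54.3 and 47.3 CPM at 50 µM and to 56.0, 50.0 and 59.2 CPM at 75 µM (log2 0.36 ± 0.13, edgeR adjusted p = 0.0160, and 0.48 ± 0.13, adjusted p = 0.00163). The rise at 50 µM was not called without untreated library 1 (adjusted p = 0.109) or without gefitinib library 2 (adjusted p = 0.0696). SMAD6 stood at 21.6 to 28.5 CPM and 26.1 to 33.8 CPM against 17.9 to 25.9 CPM untreated and was not called (log2 0.13, adjusted p = 0.607, and 0.35, adjusted p = 0.130). At 75 µM it was called with library-size scaling (adjusted p = 0.0478) and in a fit of only the groups compared (adjusted p = 0.0285). At each dose 5 of 7 members were called, 2 higher and 3 lower, against a background of 54.4% of genes at 50 µM (27.6% higher, 26.8% lower) and 54.7% at 75 µM (27.6% higher, 27.1% lower). RNR2 took 0.655% to 0.886% of counts with gefitinib against 0.464% to 0.582% in the untreated 24 h libraries, and its part in these results was not tested.

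CKI alone lowered ID1, ID3, HES1, SMAD6 and EDN1 at both doses, while ID2 moved in opposite directions at 1 and 2 mg/mL. ID2 was at 10.6, 12.5 and 9.92 CPM in CKI 1 mg/mL and at 44.8, 33.3 and 49.2 CPM in CKI 2 mg/mL, with the untreated libraries at 23.5 to 26.6 CPM between them and no overlap. It was 2.24-fold lower at 1 mg/mL (log2 -1.16 ± 0.23, edgeR adjusted p = 0.000138) and 1.72-fold higher at 2 mg/mL (0.78 ± 0.21, adjusted p = 0.00228). ID1 fell at both doses, to 118, 130 and 105 CPM (log2 -1.02 ± 0.23, adjusted p = 0.000937) and to 81.5, 94.7 and 89.9 CPM (-1.42 ± 0.23, adjusted p = 4.58e-06). ID3 was at 67.5, 77.7 and 65.7 CPM and at 88.6, 79.1 and 83.5 CPM (-0.76 ± 0.20, adjusted p = 0.00388, and -0.51 ± 0.20, adjusted p = 0.0318). The fall of ID3 at 2 mg/mL was not called with library-size scaling (log2 -0.31, adjusted p = 0.215), without the filter (adjusted p = 0.0573), without untreated library 2 (adjusted p = 0.0832) or 3 (adjusted p = 0.0902), or without CKI library 2 (adjusted p = 0.0900) or 3 (adjusted p = 0.0687).

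SMAD6 had its lowest group mean in CKI 2 mg/mL, where its libraries were at 8.21, 12.2 and 8.03 CPM (log2 -1.26 ± 0.21, edgeR adjusted p = 4.10e-06). At 1 mg/mL they were at 13.0, 16.2 and 13.3 CPM (-0.69 ± 0.20, adjusted p = 0.00949; adjusted p = 0.0541 without untreated library 2). SMAD7 went the other way at 2 mg/mL, to 60.0, 61.5 and 59.4 CPM, above every untreated library (0.61 ± 0.13, adjusted p = 0.000102), and was not called at 1 mg/mL (0.12, adjusted p = 0.540). HES1 was at 63.0 to 70.7 CPM and at 79.6 to 87.9 CPM (log2 -1.10 ± 0.16, adjusted p = 1.16e-06, and -0.78 ± 0.16, adjusted p = 8.67e-05). EDN1 was at 2.92 to 4.32 CPM and at 3.97 to 5.32 CPM (-1.06 ± 0.16, adjusted p = 1.73e-06, and -0.78 ± 0.16, adjusted p = 6.40e-05). Thus 6 of 7 members were called at 1 mg/mL, all lower, where the background was 27.9% (14.7% lower), and 7 of 7 at 2 mg/mL, 2 higher and 5 lower, where it was 51.2% (24.1% higher, 27.1% lower). RNR2 took 0.919% to 1.16% of counts in CKI 2 mg/mL, above the untreated 24 h libraries, and its part in these results was not tested.

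YFSJ alone lowered ID2, ID3, HES1 and EDN1 at both doses and raised no member. ID2 was at 11.4, 12.2 and 11.4 CPM in YFSJ 2.5 mg/mL and at 10.3, 10.9 and 10.9 CPM in YFSJ 5 mg/mL, less than all untreated 24 h libraries (log2 -1.08 ± 0.23, edgeR adjusted p = 0.00431, and -1.20 ± 0.23, adjusted p = 8.00e-04). ID3 was at 67.2, 55.5 and 57.4 CPM and at 58.7, 56.1 and 58.2 CPM (-0.99 ± 0.20, adjusted p = 0.00349, and -1.05 ± 0.20, adjusted p = 0.00104). HES1 was at 57.4 to 75.6 CPM and at 57.5 to 69.5 CPM (-1.17 ± 0.16, adjusted p = 1.29e-05, and -1.15 ± 0.16, adjusted p = 6.86e-06). EDN1 reached its lowest group mean in YFSJ 5 mg/mL, with 3.01, 3.60 and 2.61 CPM, 2.52-fold below untreated cells (-1.33 ± 0.17, adjusted p = 3.05e-07), and was at 3.55 to 3.83 CPM at 2.5 mg/mL (-1.08 ± 0.16, adjusted p = 2.54e-05).

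ID1 was at 159, 131 and 133 CPM in YFSJ 2.5 mg/mL and at 134, 125 and 139 CPM in YFSJ 5 mg/mL, all below the untreated libraries. The change was not called at 2.5 mg/mL (log2 -0.75, edgeR adjusted p = 0.0672) and was called at 5 mg/mL (-0.84 ± 0.23, adjusted p = 0.0222). The latter call was lost when untreated library 2 or 3 or any 1 of the YFSJ 5 mg/mL libraries was left out (adjusted p = 0.0548 to 0.0957). SMAD6 (log2 -0.47, adjusted p = 0.216, and -0.60, adjusted p = 0.0673) and SMAD7 (0.16, adjusted p = 0.593, and 0.09, adjusted p = 0.742) were not called. ID1 at 2.5 mg/mL was called by DESeq2 (adjusted p = 0.0446) and in a fit of only the groups compared (adjusted p = 0.000528), as was SMAD6 at 5 mg/mL (adjusted p = 0.0345 and adjusted p = 0.0307). RNR2 took 0.323% to 0.384% of counts in YFSJ 5 mg/mL, below the untreated 24 h libraries, and its part was not tested. Here 4 of 7 members were called at 2.5 mg/mL and 5 of 7 at 5 mg/mL, all lower, where 2.93% (0.918% lower) and 6.48% (2.2% lower) of all genes were called. All 3 libraries of YFSJ 2.5 mg/mL held ALB counts and none of YFSJ 5 mg/mL did. With a batch term for such libraries, estimated from the 2 groups that held both kinds, ID3 (log2 -1.29, adjusted p = 0.0387), HES1 (-1.29, adjusted p = 0.00429) and EDN1 (-1.13, adjusted p = 0.0126) were still called at 2.5 mg/mL and ID2 was not (-1.28, adjusted p = 0.0716). The 6 single-agent comparisons share the untreated 24 h libraries, so their values are not independent of each other. In bulk RNA, a lower level per cell and fewer cells with the transcript cannot be told apart.

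**Figure D2:**
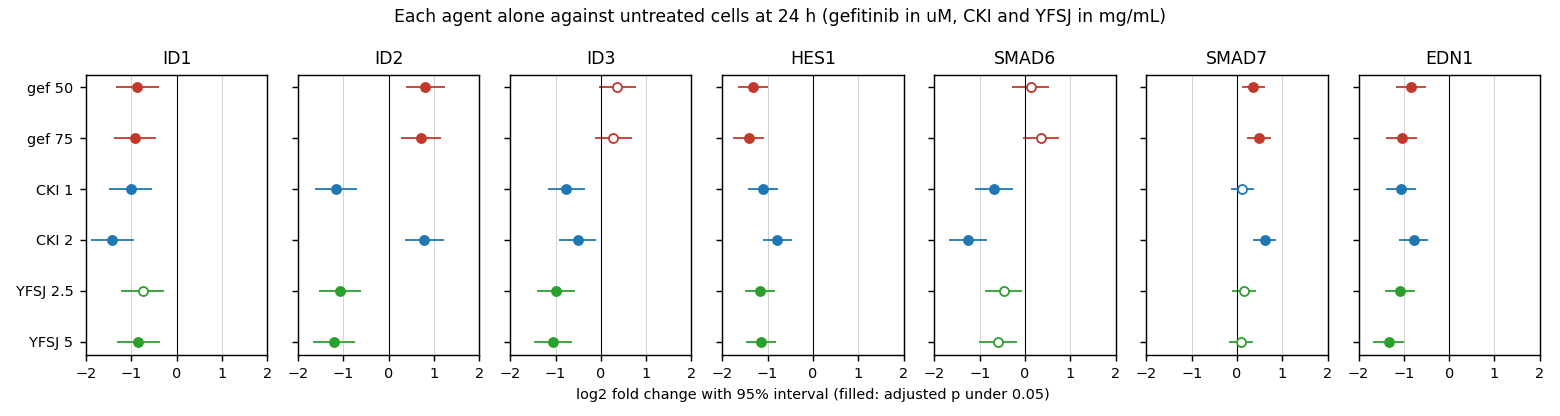
Log2 fold change of each member (1 panel per gene) for each agent alone against untreated cells at 24 h, with 95% intervals; filled points have an adjusted p under 0.05. ID1, HES1 and EDN1 lie left of 0 in all 6 comparisons, whereas ID2 lies right of 0 for gefitinib and CKI 2 mg/mL and left of 0 for CKI 1 mg/mL and YFSJ.

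Between the CKI doses 3 of 7 members were called, against 32.7% of all genes (15.1% higher, 17.6% lower). ID2 was 3.85-fold higher at 2 than at 1 mg/mL (log2 1.94 ± 0.22, edgeR adjusted p = 2.74e-08), and SMAD7 was higher as well (0.49 ± 0.13, adjusted p = 0.00251). SMAD6 was lower (-0.57 ± 0.21, adjusted p = 0.0356), a call that was lost with library-size scaling (adjusted p = 0.0861), without the filter (adjusted p = 0.0596), and without CKI 1 mg/mL library 2 or 3 or CKI 2 mg/mL library 1 or 3 (adjusted p = 0.0503 to 0.153). In a fit of only the groups compared, ID1 (-0.39, adjusted p = 0.00748), ID3 (0.26, adjusted p = 0.0328) and HES1 (0.33, adjusted p = 0.00805) were called too. Between 50 and 75 µM gefitinib 0 of 7 members were called (background 0.0317%), with differences from -0.21 for EDN1 (95% interval -0.57 to 0.15) to 0.23 for SMAD6 (-0.18 to 0.63). In this comparison and between the 2 YFSJ doses (background 0.374%) 0 of 7 were called by edgeR, also at an unadjusted p under 0.05, and 0 by DESeq2. The extremes between the YFSJ doses were -0.26 for EDN1 (-0.61 to 0.10) and 0.02 for HES1 (-0.31 to 0.35). All libraries of the lower YFSJ dose held high ALB counts and none of the higher dose did. With the ALB batch term the extremes were -0.20 for EDN1 and 0.24 for ID3, and no member was called. The differences of ID1, ID2, ID3 and SMAD7 were negative without that term and positive with it, so their direction is not clear.

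Adding CKI to gefitinib, compared with the same gefitinib dose alone, lowered SMAD6 in all 4 additions and raised HES1 in 3 of them and EDN1 in the 2 with CKI 2 mg/mL. In CKI 2 mg/mL with 75 µM gefitinib, HES1 was at 146, 138 and 171 CPM, against 62.0, 45.1 and 53.5 CPM with 75 µM gefitinib alone. No library overlapped, and the rise was 2.83-fold (log2 1.50 ± 0.16, edgeR adjusted p = 4.51e-10). With 50 µM gefitinib the same CKI dose brought HES1 to 107, 101 and 92.5 CPM (0.80 ± 0.16, adjusted p = 6.99e-05). CKI 1 mg/mL with 75 µM gefitinib had 89.5, 104 and 112 CPM (0.93 ± 0.16, adjusted p = 1.96e-05), whereas with 50 µM it had 51.9, 54.2 and 43.5 CPM and was not called (-0.21, adjusted p = 0.350).

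EDN1 rose when CKI 2 mg/mL was added: it was at 6.68, 7.20 and 7.43 CPM with 50 µM gefitinib (log2 0.71 ± 0.16, edgeR adjusted p = 0.000245) and at 10.0, 7.65 and 7.61 CPM with 75 µM (1.16 ± 0.16, adjusted p = 6.88e-08). Both groups lay above the 3.60 to 4.60 CPM of gefitinib alone. With CKI 1 mg/mL its changes were not called: -0.03 (adjusted p = 0.898) and 0.24 (adjusted p = 0.276). Library 1 of CKI 1 mg/mL with 75 µM gefitinib held 4 counts of ALB. Library 2 of CKI 2 mg/mL with 50 µM gefitinib held 8. Their HES1 levels were 89.5 and 101 CPM, and the latter had an EDN1 level of 7.20 CPM. These lay above all libraries of gefitinib alone, but each rests on 1 library of its group. With the batch term for ALB libraries, the rises at CKI 2 mg/mL with 75 µM gefitinib were 1.38 for HES1 (adjusted p = 7.77e-06) and 1.11 for EDN1 (adjusted p = 0.000148), and that of HES1 at CKI 1 mg/mL was 0.84 (adjusted p = 0.00117). At CKI 2 mg/mL with 50 µM gefitinib they were 0.72 for HES1 (adjusted p = 0.00242) and 0.67 for EDN1 (adjusted p = 0.00396). RNR2 took 1.04% to 1.56% of counts in the 3 combinations where HES1 rose, 1.02% to 1.20% in CKI 1 mg/mL with 50 µM gefitinib, where it did not, and 0.655% to 0.886% with gefitinib alone. Its part in these results was not tested.

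SMAD6 fell in all 4 CKI additions, from 21.6 to 33.8 CPM with gefitinib alone to 10.3 to 13.1 CPM. Its log2 changes were -1.07 ± 0.20 and -1.33 ± 0.20 with CKI 1 mg/mL (edgeR adjusted p = 8.21e-05 and 2.05e-06) and -1.12 ± 0.21 and -1.20 ± 0.20 with CKI 2 mg/mL (adjusted p = 1.55e-05 and 4.24e-06). SMAD7, the inhibitory SMAD with the wider reach, did not follow: it was called once, as a rise to 77.8, 75.2 and 84.6 CPM in CKI 2 mg/mL with 75 µM gefitinib (0.52 ± 0.13, adjusted p = 0.000441), above the 50.0 to 59.2 CPM of gefitinib alone. With the ALB batch term that rise was 0.44 (adjusted p = 0.0467), and the falls of SMAD6 in the 3 groups with such libraries were called, with adjusted p = 0.000117 for CKI 1 mg/mL with 75 µM, adjusted p = 0.000351 for CKI 2 mg/mL with 50 µM and adjusted p = 0.00120 for CKI 2 mg/mL with 75 µM. In fits of only the groups compared SMAD7 was called lower with CKI 1 mg/mL (-0.29, adjusted p = 0.0251, and -0.23, adjusted p = 0.0285), and with library-size scaling it was called higher in CKI 2 mg/mL with 50 µM (0.33, adjusted p = 0.0327).

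CKI 1 mg/mL lowered all 3 ID genes when added to gefitinib. ID1 was at 77.5, 76.1 and 78.0 CPM with 50 µM (log2 -0.75 ± 0.23, edgeR adjusted p = 0.0121; adjusted p = 0.0589 without gefitinib library 1) and at 41.9, 72.7 and 74.3 CPM with 75 µM, where it fell by 1.00 (SE 0.23, adjusted p = 0.00101). ID2 fell by 0.98 (adjusted p = 0.000469) and 0.95 (adjusted p = 0.000575) and ID3 by 0.90 (adjusted p = 0.000692) and 1.11 (adjusted p = 4.29e-05) on the log2 scale. Library 1 of the 75 µM group was the lowest for each ID gene, and each of these 3 calls remained when it was left out. They also remained with the ALB batch term (adjusted p = 0.00258, adjusted p = 0.00205 and adjusted p = 0.000145). With CKI 2 mg/mL, ID1 was lower by amounts that were not called (-0.39, adjusted p = 0.155, and -0.32, adjusted p = 0.239) but were in fits of only the groups compared (adjusted p = 0.00673 and adjusted p = 0.0173). With the ALB batch term the ID1 changes were -0.57 (edgeR adjusted p = 0.0923) at 50 µM and -0.60 (adjusted p = 0.149) at 75 µM. ID3 was called lower at 50 µM (-0.51 ± 0.20, adjusted p = 0.0301) and was at -0.20 at 75 µM. With the ALB batch term the ID3 changes were -0.70 (edgeR adjusted p = 0.0158) and -0.50 (adjusted p = 0.164). ID2 was called higher at 75 µM (0.53 ± 0.21, adjusted p = 0.0266) and was at 0.25 at 50 µM, where a fit of only the groups compared called it (adjusted p = 0.0385). Beside gefitinib, neither the CKI doses nor the gefitinib doses were tested against each other. The ID3 call was lost with library-size scaling (adjusted p = 0.0961), without the filter (adjusted p = 0.0589), without gefitinib library 1 (adjusted p = 0.0911) or 3 (adjusted p = 0.0545), and without combination library 1 (adjusted p = 0.0582) or 3 (adjusted p = 0.0966). The ID2 call was lost without combination library 1 (log2 0.34, adjusted p = 0.201), without gefitinib library 3 (adjusted p = 0.0995), without the filter (adjusted p = 0.0501) and with the ALB batch term (0.33, adjusted p = 0.396).

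Of 28 member tests for added CKI 18 were called, 7 higher and 11 lower. Additions of CKI or YFSJ to the same gefitinib dose share its libraries, so their values are not independent of each other. By comparison group, 4 of 7 were called with CKI 1 mg/mL and 50 µM gefitinib (all lower; background 31.8%, with 16.2% lower) and 5 of 7 with 75 µM (1 higher and 4 lower; 34.6%, with 17.3% higher and 17.3% lower). With CKI 2 mg/mL, 4 of 7 were called with 50 µM (2 higher and 2 lower; 53.6%, with 26.6% higher and 27.1% lower) and 5 of 7 with 75 µM (4 higher and 1 lower; 58.2%, with 28.8% higher and 29.4% lower).

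Of 28 member tests for YFSJ added to gefitinib 3 passed, all lower: SMAD6 in YFSJ 2.5 mg/mL with 75 µM gefitinib (17.9, 10.7 and 19.9 CPM; log2 -0.85 ± 0.20, edgeR adjusted p = 0.0229), SMAD6 in YFSJ 5 mg/mL with 75 µM (14.2, 18.8 and 19.8 CPM; -0.73 ± 0.20, adjusted p = 0.0292), and HES1 in YFSJ 2.5 mg/mL with 75 µM (38.9, 20.0 and 38.5 CPM; -0.72 ± 0.17, adjusted p = 0.0198). All 3 were lost when library 1 or library 3 of 75 µM gefitinib was left out (adjusted p = 0.0599 to 0.175). Library 2 of YFSJ 2.5 mg/mL with 75 µM gefitinib, the one with 2.18% RNR2, was the lowest for both genes, and without it HES1 (-0.47, adjusted p = 0.292) and SMAD6 (-0.63, adjusted p = 0.302) were not called. In YFSJ 5 mg/mL with 75 µM gefitinib, SMAD6 was also not called without combination library 1 (adjusted p = 0.206) or 2 (adjusted p = 0.0705), or without the filter (0.0671). Both calls in YFSJ 2.5 mg/mL with 75 µM were lost in a fit of the 2 groups alone (0.318 for HES1 and 0.242 for SMAD6). Such fits also gained calls, all lower: ID1 (-0.48, adjusted p = 0.00358), ID2 (-0.61, adjusted p = 0.000705) and ID3 (-0.58, adjusted p = 0.000168) in YFSJ 5 mg/mL with 75 µM, and ID3 (-0.56, adjusted p = 0.0219) and HES1 (-0.54, adjusted p = 0.0231) in YFSJ 2.5 mg/mL with 50 µM. The background was 1.83% (0.836% lower) for YFSJ 2.5 mg/mL and 3.46% (1.67% lower) for YFSJ 5 mg/mL with 75 µM, and 0.0887% and 0.937% with 50 µM, where 0 of 7 members were called by edgeR or by DESeq2. At an unadjusted p under 0.05 the edgeR counts there were 5 of 7 for YFSJ 2.5 mg/mL and 3 of 7 for YFSJ 5 mg/mL.

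In YFSJ 5 mg/mL with 50 µM gefitinib, library 3 stood above the other 2 for ID1 (84.2, 84.0 and 141 CPM), ID2 (24.4, 23.6 and 42.2 CPM), ID3 (84.0, 86.0 and 151 CPM) and SMAD6 (14.7, 12.8 and 24.6 CPM). Without it ID2 (log2 -0.85, edgeR adjusted p = 0.0164), ID3 (-0.86, adjusted p = 0.00758) and SMAD6 (-0.86, adjusted p = 0.00792) were called lower than gefitinib alone. HES1 did not share this: its 3 libraries were at 50.2, 61.9 and 63.9 CPM. The RNR2 share of library 3, 0.729%, was near the 0.684% and 0.707% of the other 2, and it held 1 count of ALB.

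**Figure D3:**
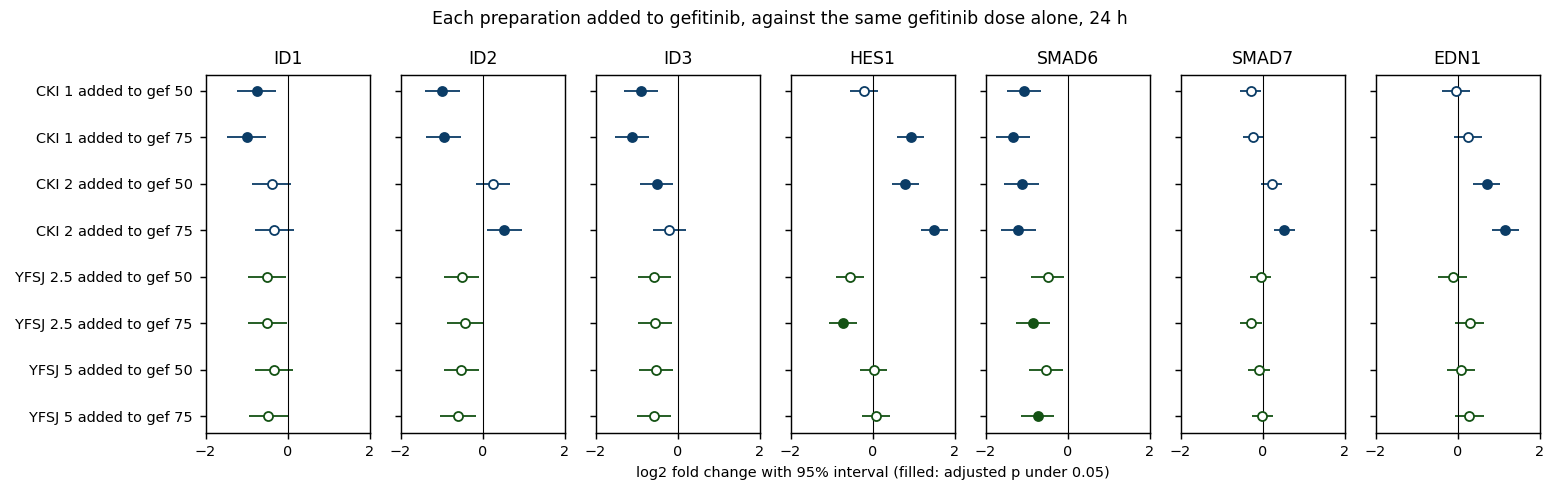
Log2 fold change of each member (1 panel per gene) when CKI (blue) or YFSJ (green) was added to gefitinib, against the same gefitinib dose alone, with 95% intervals; filled points have an adjusted p under 0.05. SMAD6 lies left of 0 in all 8 additions, while HES1 is to the right for 3 CKI additions (0.80 to 1.50) and EDN1 for both CKI 2 mg/mL additions (0.71 and 1.16).

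Set against untreated cells at 24 h, every combination had less ID1, with called falls of 1.21 to 1.92 on the log2 scale. With the ALB batch term, the ID1 changes in the CKI combinations with such libraries ran from -1.44 to -2.13 and were called. HES1 was below the untreated level in 7 of the 8 combinations, from -0.49 in CKI 1 mg/mL with 75 µM gefitinib (edgeR adjusted p = 0.00766) to -2.14 in YFSJ 2.5 mg/mL with 75 µM gefitinib (adjusted p = 7.38e-14). The smallest of these falls, in CKI 1 mg/mL with 75 µM and in CKI 2 mg/mL with 50 µM (-0.52, adjusted p = 0.00567), were not called with library-size scaling (-0.30, adjusted p = 0.113, and -0.31, adjusted p = 0.109). The former was also not called without combination library 1 (-0.41, adjusted p = 0.0516). In CKI 2 mg/mL with 75 µM gefitinib, HES1 was not called (0.08, 95% interval -0.24 to 0.40, adjusted p = 0.671), and neither was EDN1 (0.12, interval -0.19 to 0.42, adjusted p = 0.518). In that group ID2 was 2.36-fold (1.24 ± 0.21, adjusted p = 4.82e-06) and SMAD7 2.00-fold (1.00 ± 0.13, adjusted p = 6.21e-09) above untreated cells. With the ALB batch term these 2 rises were 1.04 (adjusted p = 0.00477) and 0.92 (adjusted p = 5.77e-05) on the log2 scale, and HES1 was at -0.04 (adjusted p = 0.888). Of the 56 tests against untreated cells 34 were called. All of them share the untreated 24 h libraries and are not independent of each other. With CKI 1 mg/mL 5 of 7 members were called at 50 µM gefitinib (background 54.9%) and 5 of 7 at 75 µM (59.8%), and with CKI 2 mg/mL 5 of 7 (58.1%) and 4 of 7 (62.1%). With YFSJ 2.5 mg/mL the counts were 4 of 7 (56.6%) and 4 of 7 (54.1%), and with YFSJ 5 mg/mL 3 of 7 (54.1%) and 4 of 7 (52.5%).

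The interaction of each preparation with gefitinib was tested as the measured change of each combination minus the sum of its 2 single-agent changes, averaged over the 4 dose pairs. For CKI it was positive for HES1 (log2 1.70 ± 0.17, edgeR adjusted p = 7.82e-11), EDN1 (1.44 ± 0.17, adjusted p = 2.68e-09) and ID1 (0.60 ± 0.24, adjusted p = 0.0454). For YFSJ it was positive for HES1 (0.86 ± 0.17, adjusted p = 0.00329) and EDN1 (1.34 ± 0.17, adjusted p = 4.50e-06). Both interactions use the same untreated 24 h libraries and the same libraries of gefitinib alone, so they are not independent of each other. The difference between measured change and sum varied over the dose pairs, for HES1 from 0.89 to 2.29 with CKI and from 0.45 to 1.22 with YFSJ, and for EDN1 from 1.02 to 1.95 and from 0.96 to 1.62. HES1 and EDN1 fell with every agent alone. ID1 was also lower with every agent alone, though its fall with YFSJ 2.5 mg/mL was not called. In CKI 1 mg/mL with 75 µM gefitinib its sum was -1.94, and -1.92 was measured. For HES1 and EDN1 the sum lay below the measured change in every dose pair. Why it did so was not tested. Where the difference was largest, in CKI 2 mg/mL with 75 µM gefitinib, that sum was -2.20 for HES1 and -1.83 for EDN1, where 0.08 and 0.12 were measured. Where it was smallest for HES1, in YFSJ 2.5 mg/mL with 75 µM gefitinib, the sum was -2.59 and the measured change -2.14. Library 2 of that group was at 20.0 CPM against 38.9 and 38.5 CPM, and without it the measured change was -1.89. This place and the lower end of 0.45 for YFSJ therefore rest on that library. The 4 interactions of HES1 and EDN1 were called under every alternative run (range 0.78 to 1.78 for HES1 and 1.22 to 1.54 for EDN1 over both preparations). The ID1 interaction with CKI was not. It was lost with the ALB batch term (0.44, edgeR adjusted p = 0.244), with no filter (adjusted p = 0.0779) and with library-size scaling (adjusted p = 0.0773). In all it was lost in 20 of 34 alternatives, with adjusted p up to 0.115 when 1 library was left out. The count of called members was 3 of 7 for CKI, where the background was 39.5% (20.0% higher), and 2 of 7 for YFSJ, where it was 1.7% (0.646% higher). ID2, ID3, SMAD6 and SMAD7 had no called interaction, with values from -0.31 to 0.62 and 95% intervals between -0.65 and 1.09. The ID1 interaction with YFSJ was not called either (0.35, edgeR adjusted p = 0.48). That of SMAD7 with CKI was called with library-size scaling (-0.35, adjusted p = 0.0425) and in a fit of only the groups compared (-0.32, adjusted p = 0.00617).

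**Figure D4:**
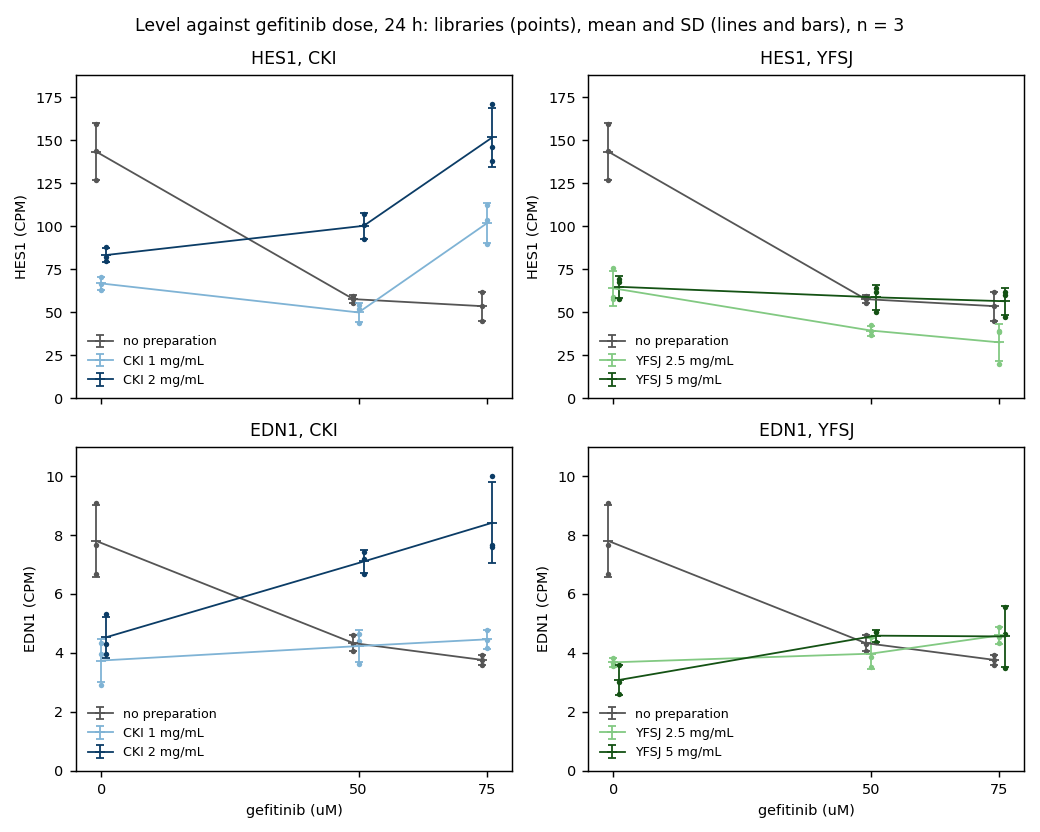
HES1 (top) and EDN1 (bottom) level in CPM (vertical axes from 0) against gefitinib dose in µM, without a preparation (grey) and with CKI (left, blue) or YFSJ (right, green); points are libraries, lines join means and bars are SD, n = 3. Without a preparation both genes fall with gefitinib, whereas with CKI 2 mg/mL HES1 goes from a mean of 83.3 to 152 CPM and EDN1 from 4.53 to 8.42 CPM across the gefitinib doses.

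As a description over the 16 group means of log2 CPM, which share libraries with the comparisons above, ID2 and ID3 were the most alike pair of members (Pearson r = 0.832, Spearman rho = 0.826), followed by SMAD7 and EDN1 (r = 0.652, rho = 0.476), ID1 and SMAD6 (0.570, 0.488), and ID3 and SMAD6 (0.541, 0.468). That order is by r, and by rho ID2 and SMAD7 came second (rho = 0.647, r = 0.418). ID1 and ID2 had r = -0.266, and SMAD6 and SMAD7 r = -0.207. Among 11140 other genes, all averaging 5 CPM or more, those with the highest r were SCG2 (0.952), S100A10 (0.937) and PIN4 (0.931) for ID1, GPCPD1 (0.955), BMT2 (0.948) and PPP1R3C (0.947) for ID2, and IP6K2 (0.903), DUSP10 (0.887) and ZBTB1 (0.822) for ID3. For HES1 they were DNAAF2 (0.899), TIMM29 (0.897) and UQCC3 (0.882), and for SMAD6 GPX1 (0.958), CLIC3 (0.928) and KRT81 (0.908). SMAD7 was closest to AMOTL2 (0.879), UBE2R2 (0.850) and ZNF687 (0.837), and EDN1 to ZNF701 (0.884) and YOD1 (0.841).

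The other genes of these pathways were read from 5 lists. On the BMP list, 30 of 37 genes were tested. Under 75 µM gefitinib 8 rose and 7 fell (background 54.7% of all genes), under CKI 2 mg/mL 7 rose and 12 fell (51.2%), and under YFSJ 5 mg/mL 1 rose and 3 fell (6.48%). BMP4, a ligand of the BMP receptors, fell from a mean of 60.6 CPM in untreated cells at 24 h to 14.7 CPM with 75 µM gefitinib (log2 -2.04 ± 0.13, edgeR adjusted p = 1.76e-17) and to 18.6 CPM with CKI 2 mg/mL (-1.71 ± 0.13, adjusted p = 6.06e-15). The ligand BMP2 rose from 22.0 CPM to 86.8 CPM with CKI 2 mg/mL (1.98 ± 0.14, adjusted p = 8.33e-16) and to 44.2 CPM with YFSJ 5 mg/mL (1.01 ± 0.14, adjusted p = 2.21e-06). The fourth ID gene, ID4, fell from 136 to 51.7 CPM with CKI 2 mg/mL (-1.39 ± 0.23, adjusted p = 4.66e-06) and to 70.1 CPM with YFSJ 5 mg/mL (-0.96 ± 0.23, adjusted p = 0.00798), and was at 135 CPM with 75 µM gefitinib (-0.01, adjusted p = 0.990). From 0 h to 24 h 1 gene of this list rose and 7 fell (25.2%), among them NOG, which encodes the secreted BMP antagonist noggin (-0.82 ± 0.10, adjusted p = 1.75e-07).

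On the TGF-beta list, with 29 genes tested, 9 rose and 4 fell under 75 µM gefitinib (background 54.7%), 4 rose and 12 fell under CKI 2 mg/mL (51.2%), 2 rose and 4 fell under YFSJ 5 mg/mL (6.48%), and 2 rose and 11 fell from 0 h to 24 h (25.2%). CTGF, a matricellular target of this arm, fell in each of these: from 199 to 90.4 CPM over the 24 h (log2 -1.14), and from there to 41.8 CPM with gefitinib (-1.11), 44.6 CPM with CKI (-1.02) and 57.2 CPM with YFSJ (-0.66). The receptor-regulated SMAD3 rose with YFSJ 5 mg/mL (0.50 ± 0.08, adjusted p = 5.63e-05), and the ligand TGFB2 fell with CKI 2 mg/mL (-1.17 ± 0.11, adjusted p = 7.55e-12).

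On the Notch list, with 34 genes tested, 13 rose and 6 fell under 75 µM gefitinib (background 54.7%), 9 rose and 10 fell under CKI 2 mg/mL (51.2%), 0 rose and 2 fell under YFSJ 5 mg/mL (6.48%), and 5 rose and 6 fell from 0 h to 24 h (25.2%). The Notch ligand JAG1 fell from 170 to 74.0 CPM with gefitinib (log2 -1.20 ± 0.10, adjusted p = 1.76e-14) and the Notch target NRARP from 26.4 to 12.1 CPM (-1.12 ± 0.12, adjusted p = 2.31e-10), whereas the HES family members HES2 (1.11) and HES6 (1.19) rose. In CKI 2 mg/mL with 75 µM gefitinib, against gefitinib alone, 11 genes of the list were higher and 8 lower (58.2%). There JAG1 (1.33 ± 0.10, adjusted p = 1.28e-15) and NRARP (1.61 ± 0.12, adjusted p = 8.25e-15) were higher, with means of 186 and 36.8 CPM. All libraries of this combination held high ALB counts and none of 75 µM gefitinib alone did. With the batch term the number of all genes called in this comparison went from 9190 to 6911. Values with that term were not read for this list. HES7 rose from 0.985 to 14.0 CPM with CKI 2 mg/mL (3.83 ± 0.24, adjusted p = 4.33e-17), and the ligand DLL4 had 1 count summed over the untreated 24 h libraries and 267 over those of CKI 2 mg/mL. LFNG, which encodes a glycosyltransferase that modifies Notch, fell with CKI 2 mg/mL (-1.99 ± 0.25) and with YFSJ 5 mg/mL (-0.96 ± 0.24).

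Of 8 endothelin genes other than EDN1, 3 passed the filter: the ligand EDN2, the receptor EDNRA and the converting enzyme ECE1. EDN2 (log2 -1.36 ± 0.42, adjusted p = 0.00607) and EDNRA (-0.54 ± 0.17, adjusted p = 0.00734) fell with 75 µM gefitinib, and EDNRA fell with CKI 2 mg/mL (-0.66 ± 0.17, adjusted p = 0.00114). ECE1 (0.63 ± 0.12, adjusted p = 0.000356) and EDN2 (1.24 ± 0.32, adjusted p = 0.0140) rose with YFSJ 5 mg/mL, where EDN1 itself fell. Among E proteins and other bHLH partners, of which 11 were tested, 5 rose and 3 fell with gefitinib (background 54.7%), 2 rose and 2 fell with CKI 2 mg/mL (51.2%) and 2 rose and 0 fell with YFSJ 5 mg/mL (6.48%). The corepressor TLE3 fell with gefitinib (-0.91 ± 0.11, adjusted p = 1.91e-09) and rose with CKI 2 mg/mL (0.66 ± 0.11, adjusted p = 1.39e-06) and with YFSJ 5 mg/mL (0.42 ± 0.11, adjusted p = 0.0105), and ATOH8 rose with gefitinib (1.08 ± 0.21) and fell with CKI 2 mg/mL (-1.79 ± 0.26). The median log2 change under 75 µM gefitinib was -0.04 for the BMP list, 0.13 for the TGF-beta list and 0.19 for the Notch list, where that of all genes was 0.02. Under CKI 2 mg/mL these medians were -0.15, -0.01 and -0.03, where that of all genes was -0.01.

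The antisense gene ID2-AS1 overlaps ID2, and the libraries do not keep strand. It held 2 to 31 counts per library, at most 6.25% of the ID2 count of the same library.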

How the data were processed

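Deposited values were raw counts per gene symbol made by the authors, whole numbers in 48 columns that all mapped to labelled samples. Per the submitters' processing notes, Trim Galore 0.4.2, STAR 2.5.3a, edgeR and the build hg19 were used; the counter, annotation and strand setting are not given in the sources used here. Libraries were unstranded paired-end, per the labels. The analysis used edgeR 4.0.16 in R 4.3.3 (limma 3.58.1): filterByExpr on the 16 groups (minimum count 10, minimum total 15) kept 15789 genes holding 99.97% of counts, TMM factors scaled library totals, and 1 robust quasi-likelihood fit with 1 mean per group (32 residual degrees of freedom, biological coefficient of variation 0.102) gave 28 comparisons. Tests were two-sided, adjusted by Benjamini-Hochberg over all genes tested; called means adjusted p under 0.05. CPM are TMM-scaled. The precision of each level is set by the depth, 16428398 to 26264162 counts per library, and by 3 libraries per group.

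The members and the lists were chosen with earlier results of these data known. Members are named throughout; from each list, the 2 largest called rises and falls averaging 1 CPM or more in the higher group were eligible at 24 h against 0 h and for the higher dose of each agent (a gene so named could be followed into another comparison), and for each member the 3 genes with the highest correlation (1 of those for EDN1 is not reported here). Lists are described by counts and medians. On simulated counts for CKI 2 mg/mL against untreated cells (15449 genes), 45 of 100 genes changed 1.5-fold and 72 of 96 changed 2-fold were recovered, with 4 false among 121 calls. Only these genes were changed there, and only in CKI 2 mg/mL, whereas 51.2% of all genes were called in the data. Recovery and false calls in the data can therefore differ from these. No replicates were identical (chi-square per gene 3.63 to 65.1). Alternatives were relative log expression factors, library-size scaling, DESeq2 1.42.0, no filter, a replicate block, fits of only the groups compared, a batch term marking libraries above 1000 ALB counts, library 3 alone at 0 h, and each library left out. Promoter windows came from RefSeq, and transcript lengths from GENCODE.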

Additional observations from a re-analysis of the deposited data

Results flagged for a closer look

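In 5 cases the change of a member under gefitinib with a preparation differed from the sum of the single changes by the edgeR interaction test. For CKI, the interaction was 1.70 on the log2 scale for HES1, 1.44 for EDN1 and 0.604 for ID1 (adjusted p = 7.82e-11, 2.68e-09 and 0.0454). For YFSJ it was 0.865 for HES1 and 1.34 for EDN1 (adjusted p = 0.00329 and 4.50e-06). These were 3 of 7 members for CKI, where 39.5% of all genes were called, and 2 of 7 for YFSJ, where 1.7% were. Both interactions share the untreated 24 h libraries and those of gefitinib alone. The ID1 call was lost in 20 of 34 alternatives, among them the ALB batch term (edgeR adjusted p = 0.244). HES1 in CKI 1 mg/mL differed between the gefitinib doses it was given with: its 3 libraries were at 43.5 to 54.2 CPM with 50 µM and at 89.5 to 112 CPM with 75 µM, a difference that was not tested.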

How the results depend on the processing

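No called change of a member changed sign under any alternative run. Relative log expression factors and the replicate block left all 196 member tests on the same side of the threshold. Same-numbered libraries did not deviate together (median r = -0.0111 over 360 pairs, -0.349 to 0.429). No shared effect of the replicate number was thus visible, which does not settle whether same-numbered libraries were set up together. The block gave 6, 10, 13, 9, 3, 18, 3, 34 and 5 called members for time, gefitinib, CKI, YFSJ, dose, added CKI, added YFSJ, combinations and interactions, as without it. DESeq2 kept 194, no filter 188, library-size scaling 181 and fits of only the groups compared 165 of the 196, the batch term 67 of 70, and single libraries left out 1387 of 1470 (68 lost, 15 gained). Library-size scaling moved the median of all genes by over 0.1 in several comparisons (0.117 against 0.0246 for 75 µM gefitinib, 0.183 against -0.0149 for CKI 2 mg/mL) and the share of higher calls from 47.1% to 69.0% for the latter. Member counts that moved by over 1.5 times were time, 6 to 3 (library 3 alone at 0 h, or only the groups compared; 3 to 7 leaving out 1 library), dose, 3 to 6 (only the groups compared), and added YFSJ, 3 to 6 (only the groups compared; 0 to 6 leaving out 1 library, with 0 without library 1 or 3 of 75 µM gefitinib, 1 without library 2 of YFSJ 2.5 mg/mL with 75 µM and 6 without library 3 of YFSJ 5 mg/mL with 50 µM). Over all alternatives the other member counts were 9 to 13 (gefitinib), 11 to 13 (CKI), 8 to 11 (YFSJ), 16 to 23 (added CKI), 31 to 39 (combinations) and 4 to 6 (interactions), the highest with only the groups compared, shared by others for CKI and YFSJ. Counts of all genes moved as follows. For 24 h against 0 h, 3980 became 147 (library 3 alone) and 155 (only the groups compared), and 1070 to 6029 leaving out 1 library. YFSJ 2.5 mg/mL gave 463, 48 with the batch term and 162 to 354 leaving out 1 library; YFSJ 5 mg/mL gave 1023, then 407 to 902. The gefitinib doses differed in 5 genes, 2 with only the groups compared and 2 to 7 leaving out 1 library. The YFSJ doses differed in 59, 0 with the batch term (397 at an unadjusted p under 0.05), 105 with only the groups compared and 18 to 45 leaving out 1 library. Added to 50 µM gefitinib, YFSJ 2.5 mg/mL gave 14, 39 with DESeq2, 28 with only the groups compared and 5 to 9 leaving out 1 library, and YFSJ 5 mg/mL gave 148, 253, 0 (1473 unadjusted) and 9 to 684. Added to 75 µM, YFSJ 2.5 mg/mL gave 289, 185 with library-size scaling, 567 with DESeq2, 0 with only the groups compared (2200 unadjusted) and 29 to 1079 leaving out 1 library, and YFSJ 5 mg/mL gave 546, 1082 with only the groups compared and 288 to 465. The YFSJ interaction gave 268, 168 with no filter, 168 with the batch term, 506 with DESeq2 and 81 to 512 leaving out 1 library. The causes were not tested.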
